A study of Mus musculus with 17 samples.

Results

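The response of quiescent NIH3T3 cells to platelet-derived growth factor (PDGF) was followed across 4 pairs of oligonucleotide arrays, each pair holding 1 array without and 1 array with PDGF at 25 ng/ml. NIH3T3 is a mouse embryonic fibroblast line. The pairs use 8 of the 17 arrays of the study and 8 of the 9 arrays of the table that holds them. They were chosen by their treatment labels. From the MEK experiment came 3 pairs: untreated cells against PDGF, UO126 at 10 µM against UO126 with PDGF, and PD98059 at 7.5 µM against PD98059 with PDGF. UO126 and PD98059 both inhibit MEK, the kinase that activates ERK. From a repeat of a Src kinase experiment came 1 pair, vehicle against PDGF for 1 h. The ninth array, PDGF with the Src family inhibitor SU6656 at 2 µM, was left out because it has no partner without PDGF. How long the MEK experiment was kept with PDGF is not given in the sources used here. Its control was untreated where that of the repeat received vehicle, so experiment and control, and time if it differed, cannot be told apart between the MEK pairs and the repeat pair. Every condition was measured on 1 array, with no statement of separate cultures. The p-values thus cover only how far the PDGF effect varied between these pairs, which may be technical variation and includes any effect of the inhibitors.

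PDGF binds receptor tyrosine kinases on fibroblasts, which signal through RAS, RAF, MEK and ERK and through other routes such as PI3K and the Src family. Immediate early genes are the genes that such a signal switches on without new protein synthesis. Many encode transcription factors, others encode inhibitors that shut the pathway down again, and others encode secreted proteins.

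The arrays were alike in overall brightness, with median signals of 133.7 to 156.1, and Spearman's rho between arrays was 0.933 to 0.967 (median 0.962 within and 0.941 between experiments). The Gapdh 3′ to 5′ signal ratio, a sign of RNA quality, was 0.788 to 0.907 on all of the 8 arrays but the untreated one of the MEK experiment, where it was 1.13. The actin 3′ to 5′ ratio was 1.19 to 1.67, highest on the vehicle array of the repeat and 1.47 on the untreated array. The part of either ratio in the results was not tested. Of 15 fibroblast markers on the array, 12 had a mean signal over 500, and their summed signal was 86246 to 130904 without and 83997 to 139057 with PDGF. Vim, which encodes the fibroblast filament protein vimentin, was dim at its probe set (29.9 to 82.5), and Fap was under 21.2 on average. The summed signal without and with PDGF was 432 to 613 and 388 to 733 for 8 leukocyte markers, 761 to 904 and 407 to 785 for 7 endothelial markers, 502 to 681 and 475 to 706 for 8 epithelial markers, and 442 to 512 and 419 to 634 for 8 muscle and adipocyte markers. Ptprc, Cdh5, Epcam and Pparg had median signals of at most 8.3, but other members were brighter. Eng, which averaged over 500, had a median of 597.4, the epithelial cadherin Cdh1 349 (259.2 to 417.7), the muscle factor Myod1 205.1 (154.2 to 261.1), and in the leukocyte list Csf1r reached 123.9 and Lyz2 98.5 at their brighter probe sets.

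PDGF raised far more transcripts than it lowered. Of 8695 probe sets tested, 147 (1.69%) passed an adjusted p of 0.05, 124 higher (1.43%) and 23 lower (0.265%) with PDGF, from 107 and 20 named genes. Without adjustment 1153 (13.3%) had a p under 0.05. Counted per gene at its brightest probe set, 103 of 6364 rose (1.62%) and 16 fell (0.251%). The sizes also differed, since 88 of the 124 rises were at least 2-fold and 33 at least 4-fold, with a median log2 effect of 1.37, while 7 of the 23 falls were at least 2-fold and 0 at least 4-fold, with a median of −0.65. An effect is the mean over pairs of the log2 ratio of PDGF over its own partner, on quantile-normalised signal with 21.2 added, which understates the change of dim probe sets. The ratio had the same sign in all 4 pairs for all 147, but the calls were made on these same ratios, which favours 1 sign. The total was 65 without the variance trend and 60 with neither pair nor experiment in the fit. Without any 1 pair it was 103 to 109, and falls numbered 7 to 13.

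**Figure D1:**
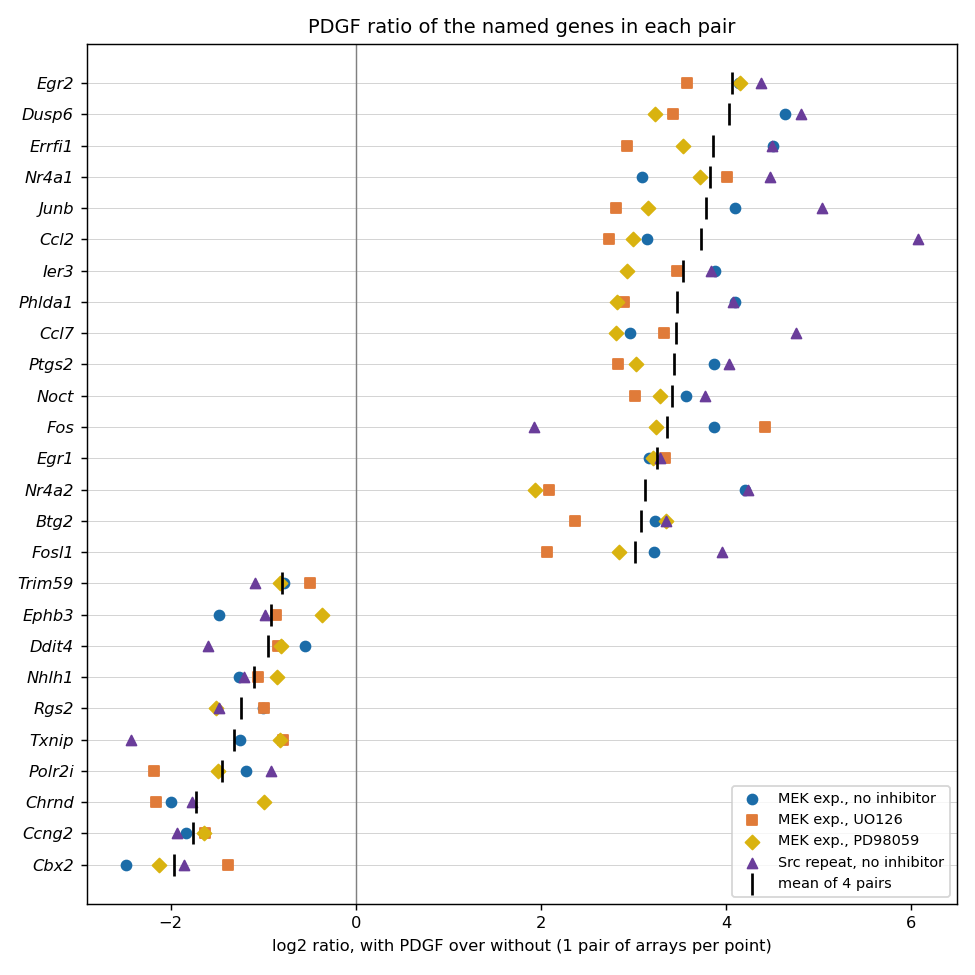
The log2 PDGF ratio of the 16 genes with the largest rise and the 10 with the largest fall, 1 point per pair of arrays and a bar at the mean of the 4 pairs. Every pair of the 16 risen genes had a log2 ratio of at least 1.92, the value of Fos in the repeat, and the widest spread was that of Ccl2, from 2.73 to 6.07.

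The genes with the largest changes were read beside their promoters, for which the 250 bases before annotated starts were taken from RefSeq (GRCm38.p6). Of the 16 genes with the largest rise 11 had a promoter in the table used, as did 8 of the 10 with the largest fall. Promoters on a chromosome left out by rule were not read. No window was available for Egr1, Ccl2, Ccl7, Phlda1 and Fosl1 among the rises, or for Cbx2 and Chrnd among the falls. Nothing is said here about motifs in those genes. The windows below are examples, 1 or more for each of 4 motifs, with the match in capitals: a CArG box, bound by serum response factor, in Egr2 (chr10:67537316-67537565, plus strand, before one of its annotated starts), the cAMP response element (CRE) TGACGTCA in Btg2 (chr1:134079156-134079405, minus strand), a CRE and a TATA box (TATAAA) in Errfi1 (chr4:150854820-150855069, plus strand), and the FOXO motif GTAAACA in Txnip (chr3:96557707-96557956, plus strand). Other windows with a match are not shown. Further ones of Egr2, before other annotated starts, overlap and hold another CArG box. The rest were those of Fos (NF-kappaB and TATA), Ier3 (NF-kappaB), Nr4a2 (TATA) and Junb (FOXO). The FOXO motif was thus in 1 of the 11 largest rises with a promoter (9.09%) and 1 of the 8 largest falls (12.5%). Sequences run 5′ to 3′ on the strand of the gene.
Egr2: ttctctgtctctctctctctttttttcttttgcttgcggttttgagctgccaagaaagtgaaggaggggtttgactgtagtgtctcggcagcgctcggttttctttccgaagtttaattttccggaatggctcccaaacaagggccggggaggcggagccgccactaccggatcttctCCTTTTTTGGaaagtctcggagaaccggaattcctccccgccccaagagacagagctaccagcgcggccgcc
Btg2: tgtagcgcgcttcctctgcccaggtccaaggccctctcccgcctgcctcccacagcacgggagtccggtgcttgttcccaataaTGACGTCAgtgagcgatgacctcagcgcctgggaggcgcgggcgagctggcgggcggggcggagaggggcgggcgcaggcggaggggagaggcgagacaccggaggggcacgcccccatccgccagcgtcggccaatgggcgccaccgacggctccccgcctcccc
Errfi1: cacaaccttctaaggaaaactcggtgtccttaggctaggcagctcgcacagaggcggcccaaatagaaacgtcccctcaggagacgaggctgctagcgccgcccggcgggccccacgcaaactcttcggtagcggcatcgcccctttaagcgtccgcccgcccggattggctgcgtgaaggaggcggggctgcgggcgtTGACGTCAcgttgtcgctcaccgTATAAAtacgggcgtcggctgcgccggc
Txnip: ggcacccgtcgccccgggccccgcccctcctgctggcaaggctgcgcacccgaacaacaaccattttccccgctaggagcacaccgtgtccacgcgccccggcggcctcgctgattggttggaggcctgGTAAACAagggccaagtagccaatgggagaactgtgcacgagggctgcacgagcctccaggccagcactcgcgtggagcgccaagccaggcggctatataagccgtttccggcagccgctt

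Over all genes that rose, 86 of 107 had a promoter, and 8 of these (9.3%) held a CRE, against 2.87% of the 5115 tested genes with a promoter and 1.77% of all 27025. A TATA box was found in 15 (17.4%, against 9.21% of tested genes and 14.3% of all), the AP-1 motif TGACTCA in 7 (8.14%, against 4.26% and 5.16%), an NF-kappaB motif in 7 (8.14%, against 5.51% and 4.46%), a CArG box in 2 (2.33%, against 1.6% and 1.62%) and the FOXO motif in 3 (3.49%, against 2.64% and 3.54%). Of the 15 fallen genes with a promoter, 1 held the FOXO motif, 2 a TATA box and 0 any of the others. Both strands were searched, motifs were counted separately so that matches can overlap, and a match is a description of the letters, not evidence of a bound site. Sites further than 250 bases before a start, and genes on the chromosome left out, were not searched. The shares can therefore miss sites.

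Among the gene lists, transcription factors of the immediate early class had the largest share of rises: 20 of 33 measured members rose and 0 fell. Their median log2 effect was 1.24, against −0.04 over all genes, of which 1.62% rose and 0.251% fell. The lists were chosen with earlier results of these data known, so the shares here and below are descriptions. For this list the medians in the single pairs were 1.13 without inhibitor, 1.17 with UO126 and 1.30 with PD98059 in the MEK experiment, and 1.33 in the repeat. Egr2, a zinc finger factor whose promoter is shown above, had the largest rise of all. Its signal without PDGF was 159.4 on the untreated array, 153.2 with UO126, 109 with PD98059 and 61.1 in the repeat, and with PDGF it was 3308.8, 2160.8, 2375.4 and 1658.5 in the same order. The arrays without and with PDGF did not overlap, and the log2 effect was 4.06 (SE 0.151, limma adjusted p = 4.4e-07), a 16.7-fold mean with 11.9-fold in the lowest and 20.8-fold in the highest pair.

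Its relative Egr1 gave nearly the same ratio in every pair. The signal went from 274 to 2712.9 in the untreated pair, from 156.9 to 1853 with UO126, from 216 to 2205.5 with PD98059 and from 290 to 2754.1 in the repeat. The level with PDGF was thus lowest under UO126, where the level without PDGF was also lowest. Its log2 ratios were 3.17, 3.34, 3.21 and 3.28, with a mean of 3.25 (SE 0.113, limma adjusted p = 4.4e-07).

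Members of the AP-1 family differed from each other in how the pairs were ordered. Fos rose from 73.5 to 1370.2 in the untreated pair, from 38.7 to 1246.1 with UO126, from 56.1 to 732.3 with PD98059 and from 65.7 to 318.8 in the repeat, so the repeat had its smallest ratio (log2 1.92, against 3.24 to 4.42 in the MEK pairs). Over 4 pairs the effect was 3.36 (SE 0.328, limma adjusted p = 0.000271). Junb and Fosl1 went the other way, each highest in the repeat. The ratios of Junb were 4.10, 2.81 and 3.16 in the untreated, UO126 and PD98059 pairs and 5.03 in the repeat (effect 3.78, SE 0.297; 2.85 at its brightest probe set), and those of Fosl1 were 3.22, 2.06, 2.84 and 3.95 (3.02, SE 0.252). Fosb reached 2609.5 in the untreated pair and 3092.9 in the repeat with PDGF, but 643.5 with UO126 and 1379 with PD98059, from 245.9 to 390.2 without PDGF (2.29, SE 0.361). Jun had the opposite order, with ratios of 0.98 and 0.85 in the pairs without inhibitor and 2.10 and 1.92 in those with one (1.47, SE 0.206). Without PDGF its signal was 571.9 and 689.2 on the arrays without inhibitor and 333.5 and 321.2 with UO126 and PD98059, while with PDGF the arrays lay between 1165.4 and 1583.2. These orders are descriptions, since neither test of a difference between pairs called an AP-1 gene.

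The orphan nuclear receptors Nr4a1 and Nr4a2 also rose. With PDGF the signal of Nr4a1 was 10063.9, 8392.9 and 7820.3 in the untreated, UO126 and PD98059 pairs and 8311.3 in the repeat. Without PDGF it was 1329.5 on the untreated array and 353.9 to 582.3 on the other arrays, and the untreated pair had the smallest of its ratios, 3.09 (effect 3.83, SE 0.181, limma adjusted p = 1.6e-06). Nr4a2 went from 40.7 to 1098.7 in the untreated pair and from 14.4 to 669.6 in the repeat, but from 57.9 to 305.7 with UO126 and from 83.1 to 385.2 with PD98059. Its ratios were 4.20 and 4.24 without and 2.09 and 1.94 with an inhibitor (3.12, SE 0.383). The vehicle signal of 14.4 is under the 21.2 added, so the ratio in the repeat depends on that value. The call of Nr4a2 was lost without the variance trend (limma adjusted p = 0.0524). A further probe set gave 4.45 in the untreated pair and 3.16 in the repeat, against 1.62 with UO126 and 2.43 with PD98059.

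The antiproliferative factor Btg2 rose by 3.08 (SE 0.158) with ratios of 3.23, 3.35 and 3.35 in the untreated, PD98059 and repeat pairs and 2.37 with UO126. Atf3, a stress-responsive bZIP factor, rose by 3.01 (SE 0.174), from 282.3 to 2334.7 in the repeat, and from between 693.3 and 1291.4 to between 6640.7 and 8727.9 in the MEK pairs. The other members past the threshold were Ier2 (2.15), the clock repressor Bhlhe40 (2.11), Nfil3 (1.68), Cebpd (1.67), Myc (1.59), Cebpb (1.23), the EGR corepressor Nab2 (1.17), Klf10 (1.10) and Id1 (0.75). The calls of 2 of them depended on single pairs: Myc did not pass without the UO126 pair (1.61) or the repeat pair (1.57), and Id1 did not pass without the UO126 (0.61), PD98059 (0.76) or repeat pair (0.73). Snai1 (0.71, limma adjusted p = 0.0511), Klf4 (0.61, limma adjusted p = 0.0578) and Klf2 (1.24, limma adjusted p = 0.323) did not pass.

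Inhibitors of kinase and cytokine signalling followed, with 10 of 18 measured members up, 1 down and a median of 0.95. The medians in the single pairs were 1.05 untreated, 1.07 with UO126, 1.04 with PD98059 and 0.8 in the repeat. Dusp6, a phosphatase that inactivates ERK, went from 73.7 to 2348.9 in the untreated pair and from 87.5 to 2868 in the repeat. With UO126 it went from 44.3 to 675.1 and with PD98059 from 56 to 725.5. The arrays with PDGF therefore fell apart by inhibitor, and every one of them was above every array without PDGF. The log2 effect was 4.03 (SE 0.258, limma adjusted p = 1.26e-05), 9.38-fold in the lowest and 28-fold in the highest pair.

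Errfi1, an inhibitor of EGF receptor family kinases, showed the same division. It rose from 281.6 to 6828.1 and from 312.9 to 7428.8 in the untreated and the repeat pair, and from 245.6 to 2122.1 and from 245.1 to 3122.7 with UO126 and PD98059 (3.86, SE 0.235, limma adjusted p = 8.64e-06). A further probe set of the gene gave 3.55, with ratios of 4.88 and 4.49 without and 1.70 and 3.12 with an inhibitor. Socs1, an inhibitor of cytokine receptor signalling through JAK kinases, did not divide in this way. From signals of 171.5 to 203.7 without PDGF it reached 1710.1, 1623.5 and 2082.3 in the untreated, UO126 and PD98059 pairs and 1243.5 in the repeat, ratios of 2.91, 2.92, 3.22 and 2.81 (2.97, SE 0.127).

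Among the remaining members Ier3 rose by 3.53 (SE 0.16) and Phlda1 by 3.47 (SE 0.231). Socs3, a relative of Socs1, rose by 2.02, the G protein regulator Rgs16 by 1.49, the phosphatases Dusp8 and Dusp1 by 1.09 and 1.00, and Cish by 0.89. Dusp8 did not pass without any 1 of the 4 pairs (0.92 to 1.19), and Cish did not pass without the untreated (0.82), UO126 (0.85) or PD98059 pair (0.88). The member that fell was Rgs2, another regulator of G protein signalling. Its signal was 1013.4, 1304, 1286.6 and 1929.5 without PDGF and 492.7, 651.1, 420.3 and 675.1 with it in the untreated, UO126, PD98059 and repeat pairs (−1.24, SE 0.134, limma adjusted p = 0.000593). Smad7, an inhibitor of TGF-beta signalling, had 0.85 (limma adjusted p = 0.0837) and Spry4, of the Sprouty inhibitors of growth factor receptors, 0.11 (limma adjusted p = 0.875), neither past the threshold.

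**Figure D2:**
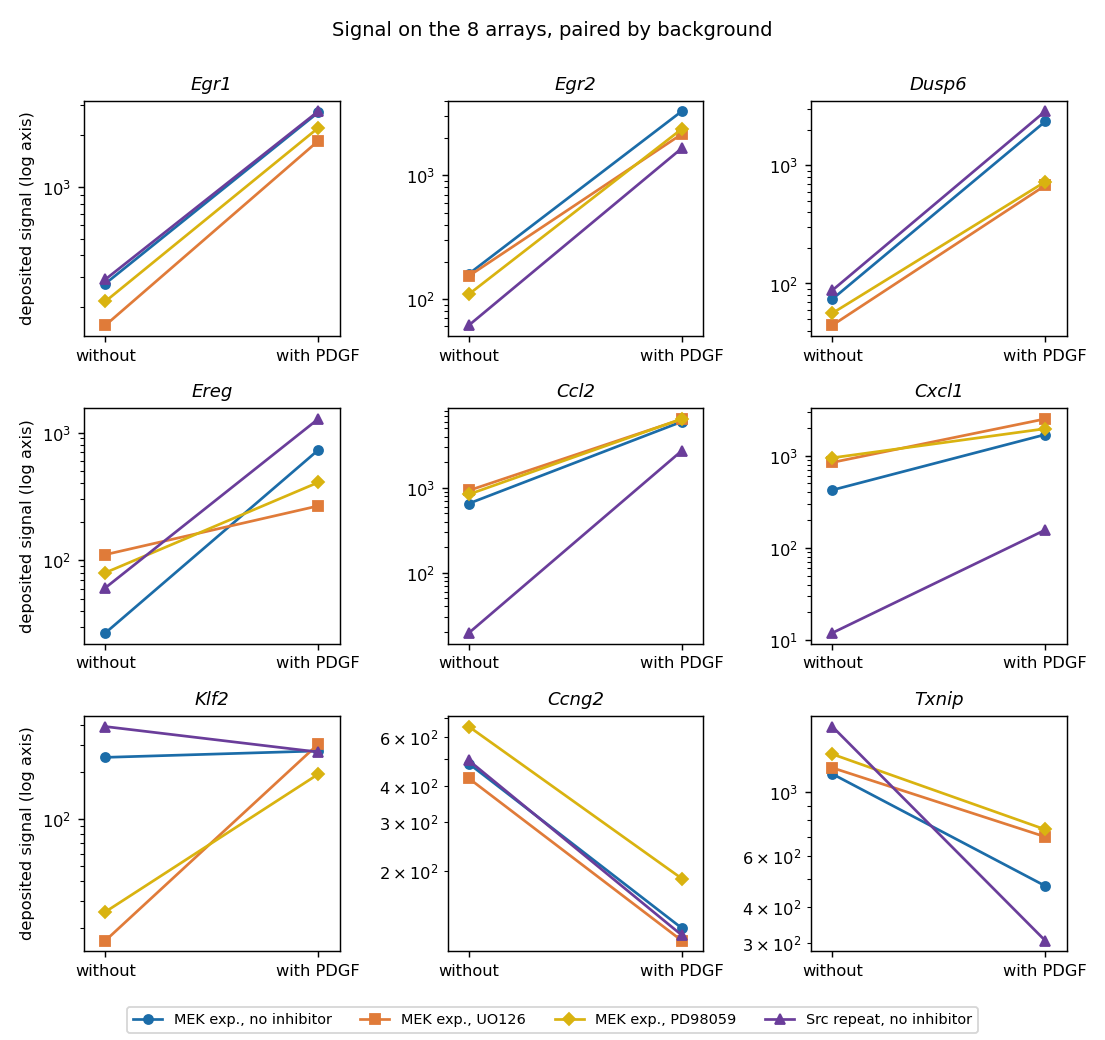
Deposited signal (log axis) of 9 genes on the arrays without and with PDGF, with a line joining the arrays of a pair. Egr1 lines run side by side, Dusp6 and Ereg arrays with PDGF are highest in the pairs without inhibitor, Ccl2 and Cxcl1 are lowest in the repeat on both arrays, and Klf2 is dim only on the arrays with UO126 or PD98059 and no PDGF.

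Secreted ligands and chemokines had 9 of 21 measured members up and 0 down, with a median of 0.49. In the single pairs the median was 1.05 and 0.85 without an inhibitor (MEK experiment and repeat) and 0.51 and 0.42 with UO126 and PD98059. Ccl2, a chemokine for monocytes, had a signal of 652.7 untreated, 929.7 with UO126 and 837.1 with PD98059, and 6005.7, 6427.6 and 6481.3 when PDGF was added. In the repeat it was 19.5 with vehicle, under the 21.2 added before the logarithm, and 2730.3 with PDGF. Both arrays of the repeat were thus below their counterparts in the MEK experiment, and its ratio was the largest (6.07, against 2.73 to 3.15). The effect over 4 pairs was 3.73 (SE 0.438, limma adjusted p = 0.00103), and the call was lost without the variance trend (limma adjusted p = 0.0551) and with neither pair nor experiment in the fit (0.111). Ccl7, a related chemokine, rose by 3.46 (SE 0.265), from 79.6 to 2606.6 in the repeat and from 271.8, 311.9 and 360 to 2321.5, 3515.6 and 2684.4 in the untreated, UO126 and PD98059 pairs.

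The neutrophil chemokine Cxcl1 was also dim in the repeat, at 12 with vehicle and 156.8 with PDGF, against 424.2 to 947.7 and 1694.4 to 2504.2 in the MEK pairs (1.69, SE 0.19). Its other probe set disagreed in the repeat, where the signal was 109.6 with vehicle and 73.9 with PDGF, a ratio of −0.54, against 1.37 to 1.91 in the MEK pairs. The EGF receptor ligands Ereg and Hbegf had higher ratios in the pairs without than in those with an inhibitor. Ereg, epiregulin, went from 27.1 to 731 in the untreated pair and from 61.1 to 1279.3 in the repeat, but from 111.1 to 267.1 with UO126 and from 80.2 to 408 with PD98059 (2.81, SE 0.418). It did not pass without the repeat pair (2.42, limma adjusted p = 0.0595). Hbegf, the heparin-binding ligand, rose by 1.60 (SE 0.321), with ratios of 1.88 and 2.97 without and 1.14 and 0.42 with UO126 and PD98059, and did not pass without the untreated (1.51), UO126 (1.75) or repeat pair (1.14). The vasodilator peptide gene Adm rose by 1.89, the activin subunit gene Inhba by 1.70, the macrophage growth factor gene Csf1 by 1.56 and the angiogenic factor gene Vegfa by 1.42. Fgf7, keratinocyte growth factor, had 0.84 (limma adjusted p = 0.151), with 1.92 in the untreated pair and 0.21 in the repeat.

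Of 22 matrix, adhesion and protease genes 5 rose and 0 fell, with a median of 0.12. They were the matricellular genes Ccn1 (2.55, SE 0.172) and Ccn2 (1.84, SE 0.112), tissue factor F3 (1.49, SE 0.195), the urokinase receptor Plaur (1.37, SE 0.191) and the hyaluronan receptor Cd44 (1.23, SE 0.183). Ccn1 went from 51.8, 79.2, 47.2 and 119.8 to 352.7, 461.6, 509.9 and 813.4 in the untreated, UO126, PD98059 and repeat pairs, with overlapping ratios of 2.29 to 2.91. For F3 the ratios were 2.15 and 1.83 without and 1.20 and 0.77 with UO126 and PD98059. Ptgs2, the inducible cyclooxygenase, was the single riser of 5 prostaglandin synthesis genes. It went from 189.9 to 3169.3, from 397.3 to 3137.3, from 175.7 to 1578.8 and from 133 to 2330.9 in the same order of pairs (3.44, SE 0.198, limma adjusted p = 6.94e-06). The 4 genes that did not pass, Pla2g4a, Ptgis, Ptgds and Ptges, had effects of −0.04 to 0.11.

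Of 10 regulators of mRNAs with AU-rich elements 3 rose, all of the ZFP36 family, whose proteins speed the decay of such mRNAs: Zfp36l1 (1.73, SE 0.1), Zfp36 (1.49) and Zfp36l2 (1.09). Zfp36 did not pass without the untreated pair (1.58) or the UO126 pair (1.64). Noct, nocturnin, rose by 3.41 (SE 0.144) with ratios of 3.02 to 3.77, while its other probe sets gave 2.01 and −0.05. Among nutrient transport and biosynthesis genes 2 of 22 rose, the kinase gene Sgk1 (1.84, SE 0.139) and the phosphate transporter gene Slc20a1 (1.09, SE 0.129). Of 19 genes of the heat shock and unfolded protein responses 3 rose: Dnajb1, a cochaperone (1.19, SE 0.228), Ddit3, a stress-induced factor (1.01, SE 0.116), and the chaperone gene Hspa1b (0.72, SE 0.145). Dnajb1 did not pass without the untreated pair (1.22), and Hspa1b did not pass without the untreated (0.75), PD98059 (0.66) or repeat pair (0.60).

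Falls were fewer, and most were smaller. Genes were counted here at their brightest probe set. Ccng2, a cyclin linked to growth arrest, was then the single gene at least 2-fold lower in every pair. Its signal was 481.4, 426.9, 651.6 and 494 without PDGF and 125.7, 113.5, 188.4 and 118.7 with it in the untreated, UO126, PD98059 and repeat pairs. The ratios, −1.83, −1.63, −1.64 and −1.93, lay close together (−1.76, SE 0.147, limma adjusted p = 7.93e-05). Cbx2, a Polycomb protein, had the largest fall, from 212.1, 195.6, 320.5 and 219.5 to 23.1, 55.7, 56.9 and 48.7 in the same order (−1.96, SE 0.231, limma adjusted p = 0.00106). At this probe set it too was at least 2-fold lower in every pair (−2.48, −1.38, −2.12 and −1.85), but its other probe set gave −0.05. That other probe set was brighter by mean log2 value over the arrays. Without PDGF it was the dimmer of them, at 95 to 147.4. Chrnd, the delta subunit of the muscle acetylcholine receptor, fell by 1.73 (SE 0.304) from 60.5 to 132.3 without to 11 to 22.4 with PDGF, levels near the 21.2 added. It did not pass without the untreated (−1.64), UO126 (−1.59) or repeat pair (−1.72).

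FOXO targets and growth arrest genes had 4 of 23 members down and 2 up, with a median of −0.01. Besides Ccng2 the falls were those of Txnip, the thioredoxin inhibitor, Ddit4, an inhibitor of mTORC1 signalling, and Sesn1, a sestrin. Txnip went from 1158.3 to 474.1, from 1216.6 to 701.6 and from 1356.7 to 743.6 in the MEK pairs and from 1690.1 to 306.5 in the repeat, ratios of −1.25, −0.79, −0.82 and −2.43 (−1.32, SE 0.236, limma adjusted p = 0.0188). Its other probe set gave 0.20, and the first did not pass without the untreated pair (−1.35). Ddit4 went from 1357.8, 1712, 1463 and 1599.9 to 904.8, 965.7, 814.6 and 513.7 in the untreated, UO126, PD98059 and repeat pairs (−0.95, SE 0.161), and did not pass without the UO126 pair (−0.99). Sesn1 fell by 0.55 and did not pass without any 1 pair (−0.56 to −0.54). The members that rose were Gadd45b, a stress sensor (1.34, SE 0.129), and Cited2, a transcriptional co-regulator (0.62, SE 0.096). Cdkn1b, which encodes the CDK inhibitor p27, had −0.60 (limma adjusted p = 0.33), at signals of 151.7 or less.

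The other named falls were those of Polr2i, an RNA polymerase II subunit (−1.45, with signals of 13.7, 12.3, 27.2 and 54.3 with PDGF, of which the first 3 are near or under the 21.2 added, and −2.11 to −1.03 over the alternatives), the bHLH factor Nhlh1 (−1.10), the ephrin receptor Ephb3 (−0.92) and Trim59 (−0.80). Polr2i and Nhlh1 did not pass without any 1 pair (−1.62 to −1.20 and −1.18 to −1.04). Ephb3 did not pass without the untreated (−0.73), UO126 (−0.94) or repeat pair (−0.90), nor Trim59 without the untreated (−0.81), PD98059 (−0.79) or repeat pair (−0.70). Of 27 PDGF receptor pathway components 0 rose and 1 fell (limma's unadjusted p was under 0.05 for 3), the receptor gene Pdgfra itself, from 1082.6, 875.7, 1123.6 and 754.3 to 621.6, 577.1, 766.8 and 448.5 in the untreated, UO126, PD98059 and repeat pairs (−0.65, SE 0.116, limma adjusted p = 0.0189). Its ratios were −0.78, −0.59, −0.50 and −0.71, and it did not pass without any 1 pair. Pdgfrb, the other receptor gene, had −0.33 (limma adjusted p = 0.286).

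In several groups few or no members passed. Over all 6364 genes 1.62% rose and 0.251% fell, so 0 in a group this small says little about it. Of 19 actin cytoskeleton genes, 17 ribosome biogenesis genes and 9 housekeeping genes 0 passed in either direction, with medians of −0.03, 0.09 and −0.05. The first list was drawn up for the actin cytoskeleton and serum response factor targets. It holds none of the immediate early factors above, such as Egr2, so it does not speak for all targets of that factor. Limma's unadjusted p was under 0.05 for 4, 2 and 3 members of these lists, against 888 of all 6364 genes. Of 27 cell cycle genes 1 passed, the polo-like kinase gene Plk2 (0.65, SE 0.079), and cyclin D1, Ccnd1, had 0.05 (limma adjusted p = 0.911). Of 14 fibroblast markers tested Twist1 rose (0.79) and Pdgfra fell, with a median of −0.01, and Twist1 did not pass without the UO126 (0.80), PD98059 (0.78) or repeat pair (0.67). None of the 4 leukocyte, 2 endothelial, 3 epithelial and 3 muscle and adipocyte markers bright enough to be tested passed limma's threshold, and 1 of the leukocyte markers and 0 of the others had an unadjusted p under 0.05.

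**Figure D3:**
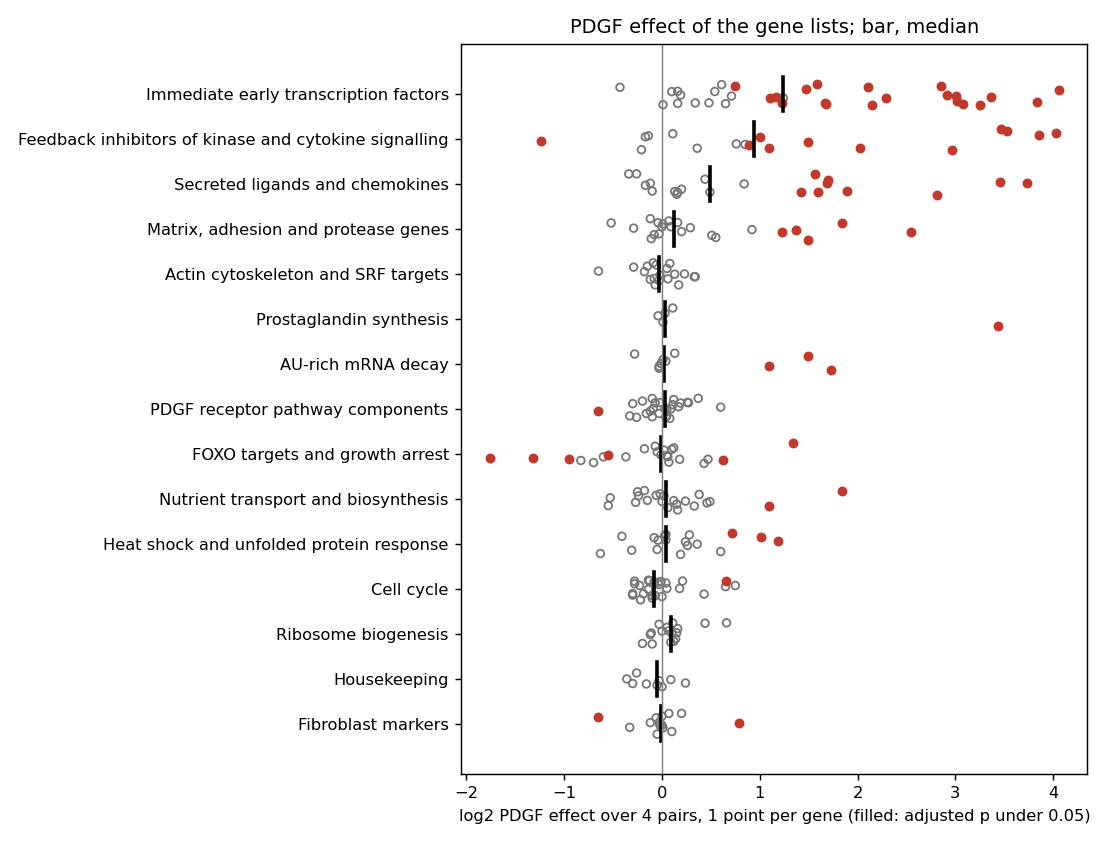
The log2 PDGF effect over 4 pairs for each measured gene of 15 lists, filled where the limma adjusted p was under 0.05, with a bar at the median of the list. Immediate early transcription factors (median 1.24), feedback inhibitors (0.95) and ligands (0.49) lie to the right, and the other medians are between −0.08 and 0.12.

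Single pairs differed in how many genes moved. At least 2-fold higher with PDGF were 206 of 6364 genes in the untreated pair, 174 with UO126, 139 with PD98059 and 229 in the repeat, and at least 2-fold lower were 176, 106, 99 and 228. In every pair 39 genes were at least 2-fold up (0.613%) and 1 down (0.0157%), each gene read at its brightest probe set. Noct and Cbx2 reached 2-fold in every pair at probe sets dimmer by mean log2 value and are not counted. The genes up in every pair that the rule for the largest rises does not name were 24, among them Tiparp, an ADP-ribosyltransferase (2.28, SE 0.29), the prostaglandin E receptor gene Ptger4 (2.02, SE 0.159), the clock gene Per1 (1.86, SE 0.213), the natriuretic peptide gene Nppb (1.74, SE 0.173), the ephrin receptor gene Epha2 (1.67, SE 0.241) and the neurotrophic factor gene Gdnf (1.66, SE 0.136). Rnf19b (1.82, SE 0.136) was also among them, and the rest belong to the lists above. For Epha2 the signals without PDGF were 21, 31.2 and 12.8 in the untreated, UO126 and PD98059 pairs, against 154.7 in the repeat. The first 3 are near or under the 21.2 added, so those ratios depend on that value. At least 2-fold in the repeat and in no MEK pair were 132 genes up and 179 down, and in all 3 MEK pairs and not in the repeat 5 up and 1 down. Without replicates these single-pair counts carry no test. Across the 8695 probe sets, which share the array design and the normalisation, Pearson's r of the ratios was 0.276 between the untreated and UO126 pairs, 0.328 between the untreated and PD98059 pairs and 0.239 between both inhibitor pairs. With the repeat it was 0.289, 0.163 and 0.306 for the untreated, UO126 and PD98059 pairs.

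The repeat pair was then set beside the MEK pairs. A fit on the ratios of the 3 MEK pairs gave 98 rises and 10 falls (108 in all, 1.24% of 8695), and the arrays of the repeat, which do not enter these effects, were read for the same probe sets. The number called moved with the pairs used, to 42 rises and 0 falls without the PD98059 pair, 78 and 5 without the untreated pair and 85 and 10 without the UO126 pair. Of the 98 that rose, 92 (93.9%) were higher with PDGF in the repeat and 71 (72.4%) at least 2-fold higher, and of the 10 that fell all 10 were lower and 5 at least 2-fold lower. Over all probe sets 46.8% had a ratio above 0 in the repeat, so most did not, and 3.9% were at least 2-fold higher. Counted per gene at its brightest probe set, 3.58% were at least 2-fold lower in the repeat. The size was alike too: the median ratio of the 98 was 1.74 in the repeat and 1.82, 1.36 and 1.42 in the untreated, UO126 and PD98059 pairs, and the repeat was above the MEK mean for 61 of them. Beyond these calls the overlap was partial. Of 229 genes at least 2-fold up in the repeat and 85 in the mean of the MEK pairs 58 were shared, 25.3% of the former and 68.2% of the latter. Of 228 and 15 genes down 5 were shared, 2.19% and 33.3%. These counts set 1 pair against a mean of 3 pairs, so they are not alike. Single MEK pairs had 139 to 206 genes up and 99 to 176 down. The part of averaging in the counts was not tested.

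**Figure D4:**
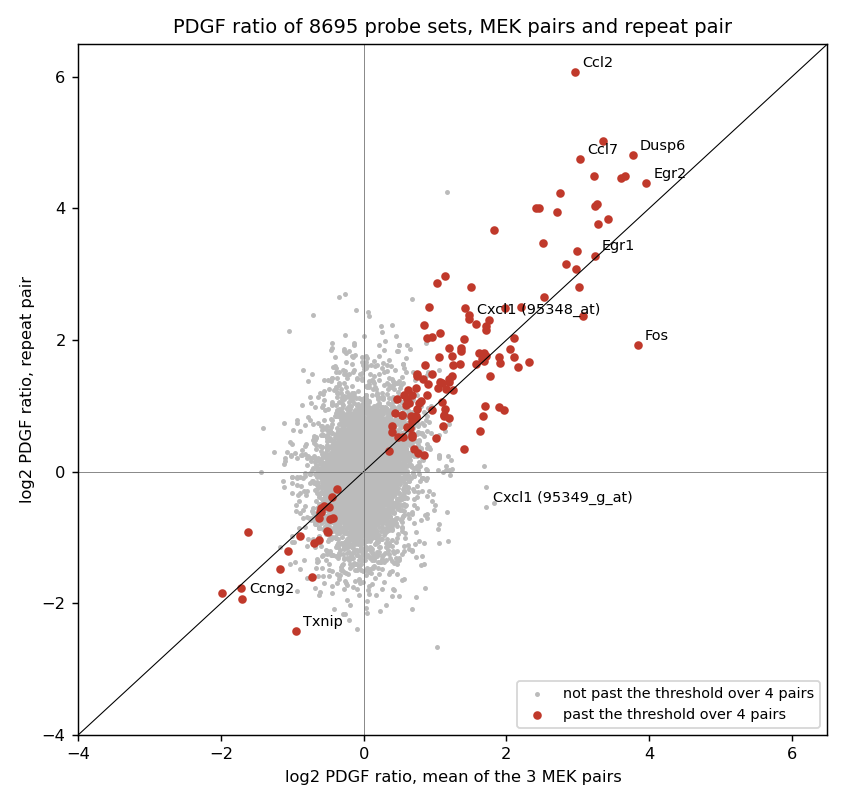
The log2 PDGF ratio of 8695 probe sets, the mean of the 3 MEK pairs on the x axis and the repeat pair on the y axis, with the line of equal ratios. Probe sets past the threshold over 4 pairs are red, Egr1 lies on the line, Ccl2 lies above it and Fos and one of the Cxcl1 probe sets lie below.

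The difference itself was tested with a term for the PDGF effect in the repeat, in which the lone repeat pair is assumed to vary like the MEK pairs. Of 8695 probe sets 1 passed (0.0115%), that of Ccl2, whose ratio was 3.11 higher in the repeat (SE 0.241, limma adjusted p = 0.0146). With a vehicle signal of 19.5 in the repeat, this size depends on the value added before the logarithm: it was 4.01 with 1 added and 2.42 with 50 added (limma adjusted p = 0.0592). Without adjustment 824 (9.48%) had a p under 0.05. Besides the larger offset, the Ccl2 call was lost without the PD98059 pair (3.13, limma adjusted p = 0.442), without the variance trend (0.403) and without the filter (0.0648). The 5 genes with the smallest p in the other direction did not pass: Zfp94 (−2.19, limma adjusted p = 0.0804), the other probe set of Cxcl1 (−2.25, 0.245), the glycolytic gene Pkm (−1.49), the histone variant gene Macroh2a1 (−2.33) and the kinase gene Limk1 (−1.95). Zfp94 did pass with the deposited scaling kept (−2.16, limma adjusted p = 0.0492) and with the lowest 50% of probe sets left out (−2.19, limma adjusted p = 0.0395). For Cxcl1, Pkm, Macroh2a1 and Limk1 a further probe set gave differences of 0.83, 0.29, 0.05 and 0.24, of the opposite sign. For Fos the difference was −1.93 (limma adjusted p = 0.403) and for Txnip −1.48 (0.403), neither past the threshold.

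Of the 124 rises over 4 pairs, the repeat pair had the largest ratio of all in 54 (43.5%, against 28.5% of all probe sets) and the smallest in 24 (19.4%, against 30.3%). Of the 16 genes with the largest rise it was largest in 10 (Egr2, Dusp6, Nr4a1, Junb, Ccl2, Ccl7, Ptgs2, Noct, Nr4a2 and Fosl1) and smallest in 1, Fos. This order depended on the probe set for 2 of them: a further one of Nr4a2 gave 4.45 in the untreated pair and 3.16 in the repeat, and further ones of Noct gave 2.17 with UO126 and 1.86 in the repeat, and 0.16 and −0.41. Since the repeat pair took part in these calls, the shares are a description.

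Finally, the pairs with a MEK inhibitor were compared with the pairs without, which were the untreated pair of the same experiment and the repeat. Limma called 0 of 8695 probe sets (0%), with a smallest adjusted p of 0.286, and 427 (4.91%) had an unadjusted p under 0.05. Calls numbered 0 to 2 without any 1 pair. Without the PD98059 pair the further Errfi1 probe set (−2.98, limma adjusted p = 0.0192) and Klf2 (3.38, limma adjusted p = 0.0455) passed. Among the 124 rises, both inhibitor pairs had smaller ratios than both pairs without in 55 (44.4%, against 16% of all probe sets) and larger ones in 8 (6.45%, against 16.8%). Of the 16 genes with the largest rise the former held for 10 (Dusp6, Errfi1, Junb, Ccl2, Ier3, Phlda1, Ptgs2, Noct, Nr4a2 and Fosl1) and the latter for 0. At a further probe set of Noct the UO126 ratio, 2.17, was above the 2.14 of the untreated pair. The pairs without inhibitor took part in calling these rises, so this too is a description.

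**Figure D5:**
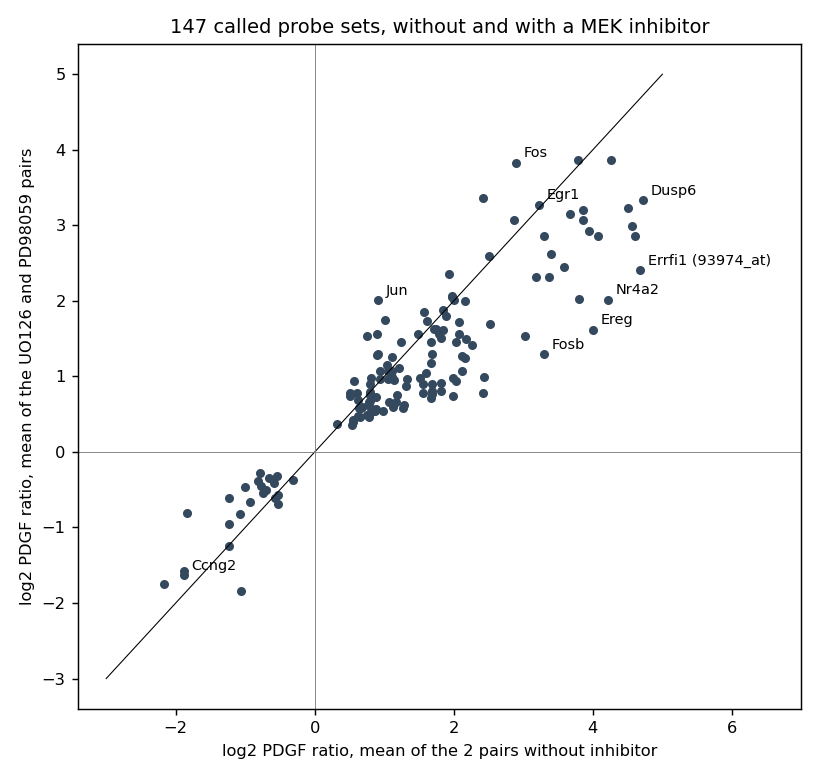
The log2 PDGF ratio of the 147 probe sets past the threshold over 4 pairs, the mean of the pairs without inhibitor on the x axis and the mean of the UO126 and PD98059 pairs on the y axis, with the line of equal ratios. Dusp6, Nr4a2, Ereg, Fosb and the further Errfi1 probe set lie below the line, Egr1 lies on it, and Jun and Fos lie above it.

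The genes with the smallest p for a lower ratio with an inhibitor were Nr4a2 (−2.20, SE 0.345), Ereg (−2.39, SE 0.383), the cytochrome gene Cyp2c38 (−2.57, SE 0.433), the further Errfi1 probe set (−2.28, SE 0.408) and Fosb (−2.01, SE 0.363), all with a limma adjusted p = 0.286. Those for a higher ratio were Klf2, a zinc finger factor (2.87, SE 0.44), Avil, an actin-binding protein gene (2.77, SE 0.497), the histone gene H3c14 (1.12, SE 0.203), the nuclear pore gene Nup50 (1.62, SE 0.31) and Sac3d1 (2.88, SE 0.555), with limma adjusted p-values of 0.286 to 0.369. In Klf2 the arrays without PDGF set the ratios apart, at 249.6 untreated and 393.6 with vehicle against 16.6 with UO126 and 25.4 with PD98059. The latter are near or under the 21.2 added, and the difference was 2.26 with 50 and 3.72 with 1 added, while the 4 arrays with PDGF lay between 194.8 and 303.9. For Ereg both sides moved, since the inhibitor arrays were higher without PDGF (111.1 and 80.2, against 27.1 and 61.1) and lower with it. A further probe set of Nup50 gave a difference of −0.23 and 2 of Sac3d1 gave 0.20 and −0.06, so these did not repeat within the array. For Nr4a2, whose vehicle signal of 14.4 is also under the value added, a further probe set gave −1.78.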

How the data were processed

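The deposited intensity values are linear signals per probe set that the submitters had scaled, as the values show, to a common 2% trimmed mean of 500.3 to 500.4 per array. What software was used, and whether a genome build lay behind it, is not given in the sources used here. The table holds 12488 probe sets, of which 66 are controls and were left out. Platform annotation gave 1 gene for 10833 probe sets, several for 396 and none for 1193, with 10817 symbols updated through Entrez IDs against RefSeq (GRCm38.p6). Only probe sets with 1 gene were named.

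The 9 arrays were quantile normalised, the 20th percentile (21.2) was added and log2 taken, and probe sets in the lowest 30% by mean log2 value were dropped, leaving 8695 (6364 genes). Models were fitted with limma 3.58.1 (lmFit and eBayes with a trend) in R 4.3.3, with Benjamini-Hochberg adjustment over all 8695 and a threshold of 0.05. The pair was a block. Pairing follows the labels: the 2 arrays of a pair have the same experiment and inhibitor. Residual degrees of freedom were 3, and 2 in the fits with a difference between pairs. The number of arrays limits the precision. The scripts were tested on simulated data.

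The pairs, the gene lists and the tests were chosen with earlier results of these data known. Named genes were the 16 largest rises and 10 largest falls past the threshold with 1 sign in all 4 pairs, each at its called probe set of largest change. For the differences between pairs they were those past the threshold, or the 5 of smallest p per direction. From each list, read at the brightest probe set of a gene, the rule named up to 4 members of largest change past the threshold, and members that did not pass from the feedback, ligand and machinery lists. Genes at least 2-fold in every pair at their brightest probe set were also named. List members given beyond these, such as Jun, Myc and Id1, were added after their values were seen. Alternatives were other scalings, offsets, filters and fits, and leaving out each pair.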

Additional observations from a re-analysis of the deposited data

Results flagged for a closer look

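Among the 26 genes with the largest changes, 2 had a pair far from the other pairs by Dixon's test, which chance gives in about 1 of 20 groups of 4. For Ccl2 the log2 PDGF ratio in the repeat was 6.07, against 2.73 to 3.15 in the MEK pairs, with a vehicle signal of 19.5 against 652.7 to 929.7 on the corresponding arrays of the MEK experiment. For Btg2 the ratio in the UO126 pair was 2.37, against 3.23 to 3.35 in the others. The test of the difference in PDGF effect between the repeat and the MEK pairs gave 3.11 for Ccl2 (SE 0.241, limma adjusted p = 0.0146), with the spread of the single repeat pair taken from the MEK pairs. As the vehicle signal lies under the 21.2 added, both 6.07 and 3.11 depend on that offset, and the difference was 2.42 with 50 added (limma adjusted p = 0.0592). The call was also lost without the PD98059 pair, the filter or the variance trend. The part that the experiment, the control or the time with PDGF had in these values was not tested.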

How the results depend on the processing

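All 410 values of the 26 named PDGF effects under the alternatives kept their sign. The genes were chosen for 1 sign in all 4 pairs, so leaving out a pair could not change it. Nor could another block, which leaves the mean as it is. Of these genes 17 passed the threshold in every alternative run. Ccl2, Nr4a2, Chrnd, Polr2i, Txnip, Nhlh1, Ddit4, Ephb3 and Trim59 did not. The 147 calls over 4 pairs became 65 without the variance trend, 60 with no pair or experiment in the fit, 138 with the experiment in place of the pair block and 130 with the pair as a random block, and 103 to 109 without any 1 pair (96 to 99 up and 7 to 13 down). Falls numbered 9 without the filter. For the difference between MEK and repeat pairs the single call became 2 with the deposited scaling and 3 with the lowest 50% left out, Zfp94 among them in both, and 0 with an offset of 50, without the filter and without the trend, with 0 to 1 without any 1 pair. The 108 calls in the MEK pairs became 60 without the filter, 38 without the trend and 42 to 95 without any 1 pair, with 42 without the PD98059 pair. The 0 calls for MEK inhibitor pairs stayed at 0 in the alternatives other than leaving out a pair (0 to 2). Genes at least 2-fold in every pair at their brightest probe set were 40, and 44 to 52 without any 1 pair. The cause of these changes was not tested, apart from fewer arrays where a pair was left out. With 1 array per condition the precision is limited by the number of pairs, and dim probe sets near the offset of 21.2 carry least information.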

Other observations

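Some genes rose in the MEK pairs and not in the repeat. Chosen after their values were seen, they include Rhoq, a small GTPase, with log2 ratios of 0.73, 0.81 and 0.68 in the untreated, UO126 and PD98059 pairs and −0.22 in the repeat, Flt1, a VEGF receptor, with 1.08, 0.94 and 0.65 against −0.37, and Ttc39b with 0.70, 1.03 and 0.74 against −0.30. The limma adjusted p of the difference was 0.403 for each, so none passed. Falls of this kind were those of Hspd1, a mitochondrial chaperone, with −0.49, −0.98 and −0.99 against −0.07, and Cdkn2d, a CDK inhibitor, with −1.48, −0.85 and −1.02 against −0.24. Both were still below 0 in the repeat, and neither difference passed (limma adjusted p = 0.469 and 0.527).

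The brightest Actb probe set read 1648.3 on the untreated array of the MEK experiment and 166.9 to 369 on the other 7 arrays of the pairs, and its ratio in the untreated pair, −3.18, was the lowest of any gene in that pair.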
